A study of Mus musculus with 36 samples.

Results

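The genes described here are Cx3cr1, Duoxa2, Scimp, Ctnnd2, Cd4 and Nt5e, 6 of the 12795 genes listed in a count table of sorted mouse heart macrophages. They were chosen because their levels differed between cells with and without Cre recombinase in earlier results from the same table, so their values in those comparisons are given as a description, with no test. The RNA of 36 libraries was sequenced after polyA selection. Macrophages had been sorted from the heart into a fraction with the chemokine receptor CCR2 (CCR2pos) and one without it (CCR2neg).

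Mice were fed tamoxifen for 7 days, had 90 min of cardiac ischemia and gave their macrophages 7 days after that injury. All animals are described as Cx3cr1-er-Cre Td-Tomato-LoxSTOP, that is, with a tamoxifen-inducible Cre driven by Cx3cr1 and a red fluorescent reporter behind a floxed stop. TFEB-TG animals additionally had TFEB-LoxP-STOP, a cassette for the lysosomal transcription factor TFEB that Cre switches on, and TFEB-wt animals had no such cassette. In TFEB-wt, each fraction gave 5 Cre-neg and 5 CX3CR1-Cre libraries. In TFEB-TG, each fraction gave 4 Cre-neg and 4 mac-TFEB libraries, mac-TFEB being the cells with both Cre and the cassette. The series text says that the Cre-neg samples lacked Cre, which the description of the strains does not show. Whether lack of Cre refers to other animals or to other cells of the same animals, and whether the Cre sits in the Cx3cr1 gene itself, is not stated.

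Cx3cr1 encodes the receptor for fractalkine, a membrane-bound chemokine, and is a marker of monocytes and many tissue macrophages, which is why its promoter is used to drive Cre in these cells. Duoxa2 encodes the maturation factor that carries the hydrogen peroxide-producing oxidase DUOX2 to the cell surface, a system known from the thyroid and from epithelia. Scimp encodes a membrane adaptor of antigen-presenting cells and macrophages that brings the kinase Lyn to Toll-like receptors. Ctnnd2 encodes delta-catenin, an adherens junction protein best known from neurons. Cd4 encodes the co-receptor of helper T cells, which some macrophages carry too. Nt5e encodes CD73, the ecto-enzyme that turns extracellular AMP into adenosine.

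Library totals ran from 13797484 to 32645783 counts, with a median of 19676040. Ccr2 averaged 647 to 853 CPM (counts scaled to the library total) in the 4 CCR2pos groups and 48.1 to 76.1 CPM in the 4 CCR2neg groups. The summed level of 10 macrophage markers was 33940 to 48960 CPM in all libraries. Tfeb averaged 5.92 to 8.07 CPM in the TFEB-wt groups, 22.2 ± 12.3 and 38.3 ± 14.9 CPM (SD, n = 4 each) in TFEB-TG Cre-neg cells (CCR2neg and CCR2pos) and 194 ± 135 and 158 ± 111 CPM in mac-TFEB cells, so the Cre-neg cells with the cassette were above TFEB-wt. One library stood apart, TFEB-TG CCR2neg Cre-neg replicate 1, with a median correlation of 0.908 to its own group and 513 CPM of 7 summed cardiomyocyte markers against at most 72.2 CPM in the other groups. The labels do not state that the replicates were different animals. Xist, which female cells express, was above 10 CPM in TFEB-wt replicates 2 to 5 and TFEB-TG replicates 3 and 4, and in no other replicate. Every group thus held both Xist states, so its replicates did not all come from the same animal. The states were not equally shared between the genotypes, so comparisons between genotypes are not balanced for them. The p-values cover the spread of these samples alone, and part of that spread could be technical.

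The 6 genes were placed on the mouse genome with the GENCODE vM21 annotation of GRCm38. Cx3cr1 (ENSMUSG00000052336) is annotated on the minus strand of chromosome 9 from 119901616 to 120069879, and 78 of its 4505 exon bases overlap the antisense gene Gm33858. Duoxa2 (ENSMUSG00000027225) is on the plus strand of chromosome 2 from 122298900 to 122302885, and 682 of its 1592 exon bases (42.8%) overlap Duoxa1 on the other strand. The libraries keep no strand information, so reads from those 682 bases cannot be assigned to one of the 2 genes, and neither Duoxa1 nor Duox2, which lies 451 bases away on the minus strand, is listed in the table. Scimp (ENSMUSG00000057135) is on the minus strand of chromosome 11 from 70790932 to 70812586, Ctnnd2 (ENSMUSG00000022240) on the plus strand of chromosome 15 from 30172593 to 31029341, Cd4 (ENSMUSG00000023274) on the minus strand of chromosome 6 from 124864692 to 124888221 and Nt5e (ENSMUSG00000032420) on the plus strand of chromosome 9 from 88327197 to 88372092. No exon base of these 4 genes is shared with another annotated gene.

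The promoter windows of Cx3cr1 and Duoxa2 are printed because the first is the gene that names the Cre driver and the second had the widest separation by Cre status. Each is 300 bases from RefSeq (GRCm38.p6), on the strand of the gene. That of Duoxa2 runs from 250 bases before its GENCODE start to 50 bases after it. The RefSeq windows of the other genes are not placed by the GENCODE start. That of Cx3cr1 lies inside the gene as annotated there, downstream of its start at 120069879. The Ctnnd2 window (30172284 to 30172583) ends before its GENCODE start, and the Nt5e window (88327359 to 88327658) begins after it. Cx3cr1 is at chr9:120068247-120068546 on the minus strand and Duoxa2 at chr2:122298650-122298949 on the plus strand, and capitals mark the letters TATAAA.
Cx3cr1: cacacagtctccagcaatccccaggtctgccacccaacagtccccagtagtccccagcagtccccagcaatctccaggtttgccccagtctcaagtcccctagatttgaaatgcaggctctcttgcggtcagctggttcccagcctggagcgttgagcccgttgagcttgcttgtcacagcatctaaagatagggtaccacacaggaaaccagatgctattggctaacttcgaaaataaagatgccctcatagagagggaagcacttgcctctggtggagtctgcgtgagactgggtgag
Duoxa2: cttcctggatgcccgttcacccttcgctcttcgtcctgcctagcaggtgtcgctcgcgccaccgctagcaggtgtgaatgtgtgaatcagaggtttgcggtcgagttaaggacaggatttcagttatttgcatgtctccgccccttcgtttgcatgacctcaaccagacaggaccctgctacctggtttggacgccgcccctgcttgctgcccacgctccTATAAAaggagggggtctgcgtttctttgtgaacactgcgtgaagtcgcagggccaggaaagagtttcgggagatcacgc
The single TATAAA of Duoxa2 begins 30 bases before its start, and 13.6% of 32851 promoters of this length hold these letters on either strand. Those of Cx3cr1, Ctnnd2 and Nt5e do not hold them. Neither GAGGAA, the core bound by the macrophage factor PU.1, nor CACGTG, the E-box of the TFE family, occurs on either strand of the 4 windows that could be matched (Cx3cr1, Duoxa2, Ctnnd2 and Nt5e), against 28.3% and 7.15% of all promoters. TATAAA was searched after the sequences had been seen.

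Duoxa2 gave a near on-off pattern. In CCR2neg cells of TFEB-wt it measured 1.57, 0.268, 0.162, 0.185 and 0.372 CPM in the 5 Cre-neg libraries and 9.78, 10.2, 13.2, 10.8 and 10.5 CPM in the 5 CX3CR1-Cre libraries. In CCR2pos cells of TFEB-wt the values were 1.07, 0.105, 0, 0.432 and 0.693 CPM without Cre and 8.36, 9.86, 9.84, 12.6 and 9.65 CPM with it. No library with Cre came near the range of those without it in either fraction. In TFEB-TG CCR2neg cells Duoxa2 was at 0.725, 0.266, 0.610 and 0.591 CPM in Cre-neg libraries and 11.6, 10.1, 9.87 and 10.6 CPM in mac-TFEB libraries. In TFEB-TG CCR2pos cells it was at 0.553, 0.286, 0.343 and 0.0639 CPM in Cre-neg libraries and 10.9, 10.3, 8.83 and 7.61 CPM in mac-TFEB libraries. The 18 libraries with Cre spanned 7.61 to 13.2 CPM with a coefficient of variation of 13.1%, and the 18 without it spanned 0 to 1.57 CPM. Duoxa2 was the only gene of 12795 (0.00782%) for which every library with Cre lay above every library without it, and 0 genes lay wholly below. Since Duoxa2 was chosen on this difference, that count is a description.

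The counts behind these values were low but not sparse, with 139 to 323 reads per library with Cre (3800 in all) and 0 to 35 reads per library without it (176 in all). The library at 0 was TFEB-wt CCR2pos Cre-neg replicate 3, where a count of 0 in 19695296 allows up to 0.152 CPM (3 counts, counting error only), so its partner with the same label number, at 9.84 CPM, was at least 64.6-fold higher. The 4 group means with Cre were 10.9 ± 1.33, 10.5 ± 0.764, 10.1 ± 1.55 and 9.40 ± 1.47 CPM, and their libraries overlapped from each to the next. The fitted log2 fold changes were 4.40 ± 0.50 (SE) and 4.42 ± 0.50 in TFEB-wt CCR2neg and CCR2pos cells and 4.28 ± 0.56 and 4.84 ± 0.59 in the same fractions of TFEB-TG. Without TFEB-wt CCR2neg Cre-neg replicate 1, whose 1.57 CPM was the highest value without Cre, the first of these became 5.41, and without replicate 1 of TFEB-wt CCR2pos Cre-neg, at 1.07 CPM, the second became 5.05. Only 2 of the 18 Cre-neg libraries reached 1 CPM, against all 18 with Cre, and the filter by which genes were listed in the table is not stated. The other 5 genes reached 1 CPM in all 36 libraries.

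**Figure D1:**
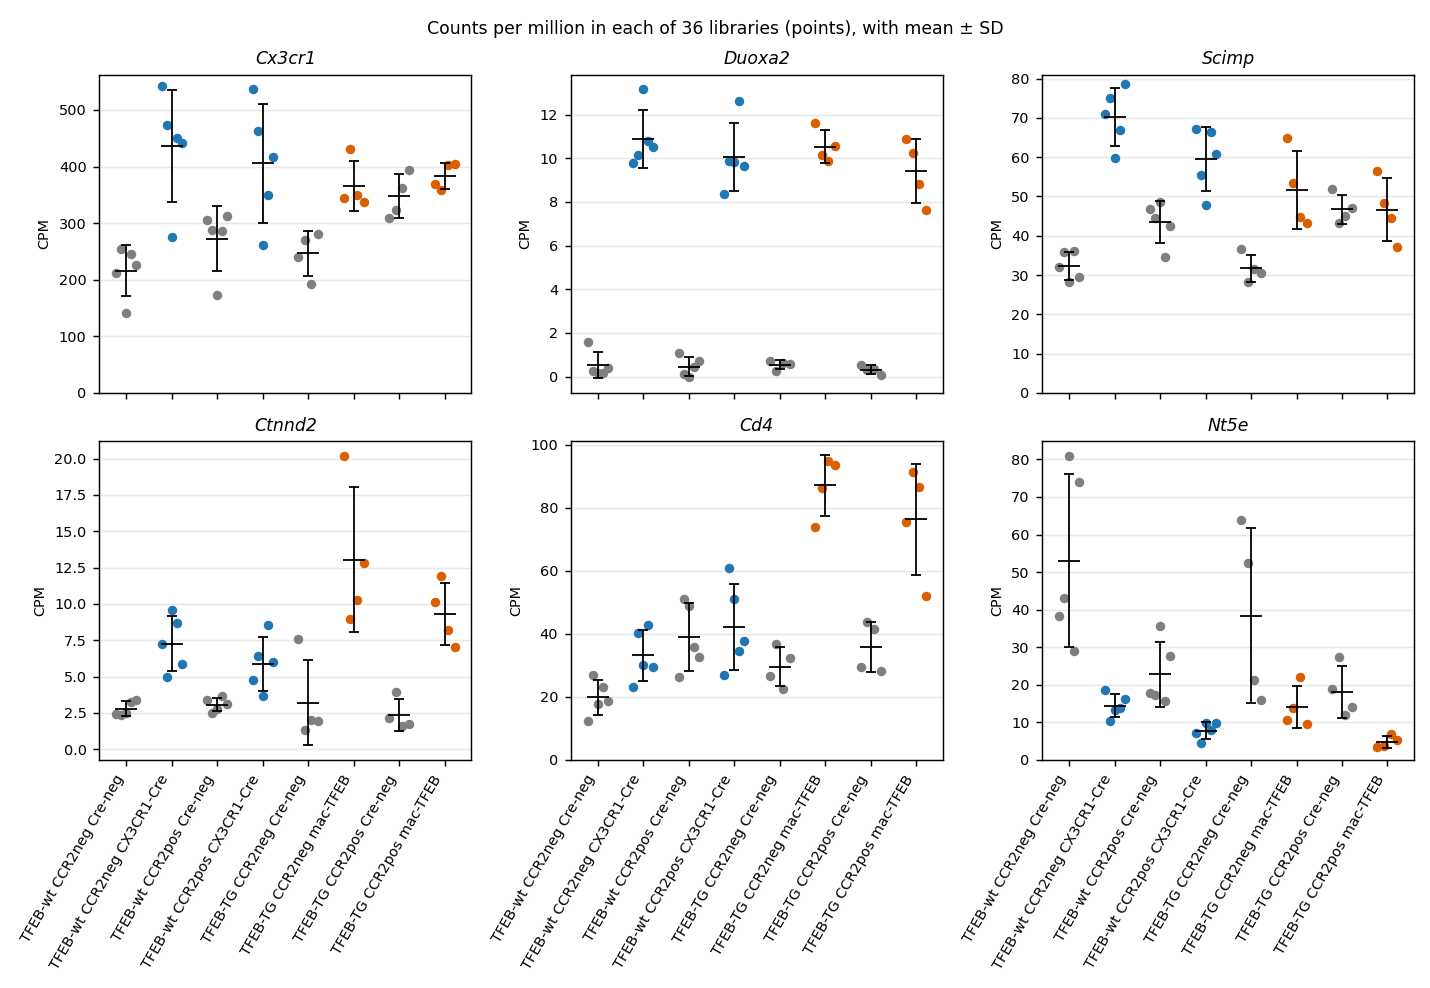
Each panel shows 1 gene, with the 8 groups on the horizontal axis and CPM on the vertical axis. Points are libraries (grey Cre-neg, blue CX3CR1-Cre, orange mac-TFEB), the short bar is the group mean and the whiskers are 1 SD. Duoxa2 has all 18 libraries with Cre between 7.61 and 13.2 CPM and all 18 without it at or below 1.57 CPM, while the other 5 genes overlap between Cre states over the whole series.

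Cx3cr1, the gene that drives the Cre, was itself higher with Cre in most groups. It measured 212, 255, 142, 246 and 227 CPM in TFEB-wt CCR2neg Cre-neg libraries and 543, 473, 275, 449.7 and 442 CPM in the CX3CR1-Cre libraries of that fraction. In TFEB-wt CCR2pos cells it measured 305, 287, 172, 286 and 313 CPM without Cre and 536, 463, 261, 351 and 417 CPM with Cre. Replicate 3 was the lowest of its group in all 4 of these groups, and in CCR2pos cells its CX3CR1-Cre value lay below 4 of the 5 Cre-neg values. In TFEB-TG CCR2neg cells the values were 241, 271, 193 and 281 CPM without Cre and 344, 432, 349 and 338 CPM with mac-TFEB, with no overlap. In TFEB-TG CCR2pos cells they were 309, 323, 362 and 394 CPM and 369, 358, 404 and 404 CPM, which overlapped.

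The Cx3cr1 difference was largest in TFEB-wt CCR2neg cells at a log2 fold change of 1.02 ± 0.19 (2.02-fold), followed by 0.62 ± 0.19 in TFEB-wt CCR2pos, 0.58 ± 0.21 in TFEB-TG CCR2neg and 0.14 ± 0.21 in TFEB-TG CCR2pos cells. Whether these 4 values differ from each other was not tested. From highest to lowest, the group means ran 437 ± 98.4 (TFEB-wt CCR2neg CX3CR1-Cre), 406 ± 105 (TFEB-wt CCR2pos CX3CR1-Cre), 384 ± 23.5 (TFEB-TG CCR2pos mac-TFEB), 366 ± 44.3 (TFEB-TG CCR2neg mac-TFEB), 347 ± 38.7 (TFEB-TG CCR2pos Cre-neg), 273 ± 57.3 (TFEB-wt CCR2pos Cre-neg), 247 ± 39.6 (TFEB-TG CCR2neg Cre-neg) and 216 ± 44.9 CPM (TFEB-wt CCR2neg Cre-neg). Every neighbouring pair in that order overlapped. Fewer cells with a transcript and less of it per cell cannot be told apart in sorted bulk RNA, for this gene and the other 5.

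Scimp, like Cx3cr1, had its largest difference in TFEB-wt CCR2neg cells. The adaptor measured 32.0, 35.9, 28.2, 36.1 and 29.6 CPM in TFEB-wt CCR2neg Cre-neg libraries and 70.9, 75.1, 59.7, 66.9 and 78.5 CPM with CX3CR1-Cre, with a wide gap between the groups. In TFEB-wt CCR2pos cells it measured 46.9, 44.5, 48.5, 34.7 and 42.6 and 67.3, 55.4, 47.9, 66.4 and 60.8 CPM, and the groups overlapped by a narrow margin. In TFEB-TG CCR2neg cells the values were 36.5, 28.3, 31.6 and 30.4 CPM without Cre and 64.9, 53.3, 44.8 and 43.3 CPM with mac-TFEB, again apart. In TFEB-TG CCR2pos cells they were 51.8, 43.3, 45.0 and 47.0 CPM without Cre and 56.4, 48.4, 44.4 and 37.1 CPM with mac-TFEB, and lay in the same range. The log2 fold changes were 1.12 ± 0.12, 0.51 ± 0.12, 0.72 ± 0.13 and -0.01 ± 0.13 in that order.

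Ctnnd2, the junction protein, was low throughout. It measured 2.40, 2.36, 2.51, 3.26 and 3.40 CPM in TFEB-wt CCR2neg Cre-neg libraries and 7.27, 4.94, 9.58, 8.70 and 5.88 CPM with CX3CR1-Cre. In TFEB-wt CCR2pos cells the values were 3.37, 2.46, 2.79, 3.64 and 3.09 and 4.74, 6.39, 3.68, 8.55 and 5.99 CPM, and in this fraction the lowest library with Cre was barely above the highest without it. In TFEB-TG CCR2neg cells it measured 7.61, 1.33, 1.98 and 1.92 CPM in Cre-neg and 20.2, 8.96, 10.3 and 12.8 CPM in mac-TFEB libraries. The highest library in both of those groups was replicate 1, and the Cre-neg one is the library with cardiomyocyte markers. In TFEB-TG CCR2pos cells the values were 2.16, 3.95, 1.62 and 1.73 and 10.1, 11.9, 8.23 and 7.07 CPM. The log2 fold changes were 1.39 ± 0.32 and 0.98 ± 0.32 in TFEB-wt (CCR2neg, CCR2pos) and 2.09 ± 0.37 and 1.96 ± 0.37 in TFEB-TG. Without TFEB-TG CCR2neg Cre-neg replicate 1 the third of these became 2.87. Groups with and without Cre did not overlap in any of the 4 comparisons.

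Cd4 was highest where Cre and the TFEB cassette were both present. It measured 26.7, 36.7, 22.6 and 32.3 CPM in TFEB-TG CCR2neg Cre-neg libraries and 73.7, 86.1, 94.8 and 93.6 CPM in mac-TFEB libraries. In TFEB-TG CCR2pos cells the values were 29.6, 43.7, 41.5 and 28.3 and 75.6, 91.5, 86.4 and 51.9 CPM. All 8 mac-TFEB libraries were above all 8 Cre-neg libraries of that genotype. In TFEB-wt CCR2neg cells it measured 12.5, 26.9, 17.8, 23.3 and 18.7 CPM without Cre and 23.3, 40.2, 30.0, 42.7 and 29.5 CPM with it, and in TFEB-wt CCR2pos cells 26.3, 51.1, 48.9, 35.9 and 32.6 and 26.8, 60.8, 51.1, 34.5 and 37.6 CPM. The TFEB-wt groups overlapped in both fractions. The log2 fold changes were 0.74 ± 0.23 and 0.16 ± 0.23 in TFEB-wt (CCR2neg, CCR2pos) and 1.57 ± 0.26 and 1.08 ± 0.26 in TFEB-TG.

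Nt5e was the only one of the 6 chosen for a lower level with Cre. It measured 38.4, 43.0, 80.9, 29.0 and 74.0 CPM in TFEB-wt CCR2neg Cre-neg libraries and 18.5, 10.3, 13.3, 13.9 and 16.3 CPM with CX3CR1-Cre. In TFEB-wt CCR2pos cells the values were 17.7, 17.3, 35.7, 15.6 and 27.7 and 7.03, 4.44, 9.70, 7.92 and 9.94 CPM. Both fractions of TFEB-wt showed no overlap. In TFEB-TG CCR2neg cells it measured 63.9, 52.3, 21.2 and 16.1 CPM in Cre-neg and 10.6, 13.9, 22.04 and 9.67 CPM in mac-TFEB libraries, where replicates 3 and 4 without Cre lay within the range with Cre. The highest of these values, 63.9 CPM, came from Cre-neg replicate 1, the library with cardiomyocyte markers. In TFEB-TG CCR2pos cells the values were 18.8, 27.4, 12.1 and 14.1 and 3.49, 3.65, 6.93 and 5.37 CPM, with no overlap. The log2 fold changes were -1.86 ± 0.34 and -1.49 ± 0.34 in TFEB-wt (CCR2neg, CCR2pos) and -1.41 ± 0.38 and -1.91 ± 0.40 in TFEB-TG. Without the library with cardiomyocyte markers the third of these became -1.11.

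Counted over groups, 5 of the 6 genes had non-overlapping groups in TFEB-wt CCR2neg cells (all but Cd4), 3 in TFEB-wt CCR2pos (Duoxa2, Ctnnd2 and Nt5e), 5 in TFEB-TG CCR2neg (all but Nt5e) and 4 in TFEB-TG CCR2pos (Duoxa2, Ctnnd2, Cd4 and Nt5e). The shares of all genes with groups apart in either direction were 3.98%, 1.45%, 3.52% and 1.99%, and since the 6 genes were picked on these contrasts nothing is read from the gap.

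Each label number occurs once with and once without Cre in each genotype and fraction, which gives 18 pairs of libraries. Within those pairs Cx3cr1, Duoxa2 and Ctnnd2 were higher with Cre in 18 of 18, Cd4 in 17 and Scimp in 15. Nt5e was lower in 17 of 18, the exception being replicate 3 of TFEB-TG CCR2neg cells, at a ratio of 1.04. Of all genes 0.477% were higher in every pair and 0.68% lower in every pair. The median ratio within pairs was 1.55 for Cx3cr1, 1.43 for Scimp, 2.84 for Ctnnd2, 1.83 for Cd4 and 0.316 for Nt5e. The ratio for Cx3cr1 was smallest in TFEB-TG CCR2pos cells, at 1.02 to 1.19, and largest in TFEB-wt CCR2neg cells, at 1.83 to 2.56.

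**Figure D2:**
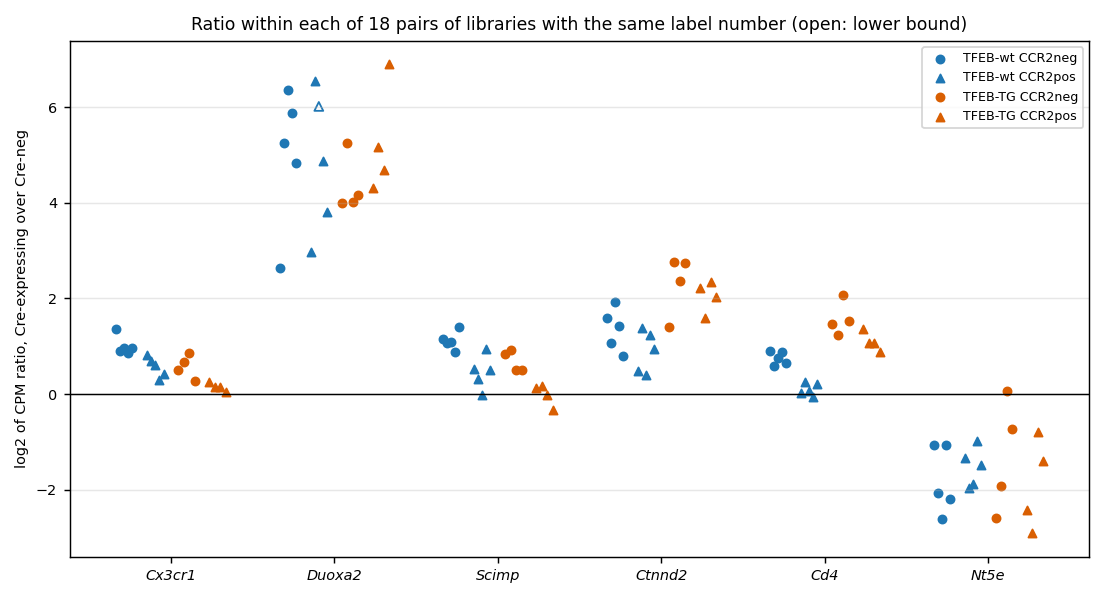
The vertical axis is the log2 ratio of CPM between the library with Cre and the library without it that has the same label number, for 18 pairs per gene on the horizontal axis. Colours give the genotype and shapes the fraction, and the open triangle for Duoxa2 is a lower bound because its Cre-neg library had a count of 0. Duoxa2, Cx3cr1 and Ctnnd2 are above 0 in all 18 pairs and Nt5e is below 0 in 17.

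Per kilobase of exon, Cx3cr1 was the most abundant of the 6 in TFEB-wt CCR2neg CX3CR1-Cre cells at 96.9 ± 21.9 CPM per kb (SD, n = 5), followed by Scimp at 65.02 ± 6.77. Cd4 was at 8.22 ± 2.01, Nt5e at 1.68 ± 0.360 and Ctnnd2 at 0.705 ± 0.186 CPM per kb in the same group. Duoxa2 was at 6.84 ± 0.838 CPM per kb over its full exon length, but with 42.8% of that length shared with Duoxa1, its place in this order relative to Cd4 is not certain.

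Comparisons that do not involve Cre status were tested with edgeR's quasi-likelihood test and Benjamini-Hochberg adjustment over 12795 genes, at an adjusted p of 0.05. They use the same libraries on which the 6 genes were chosen, so their p-values are not independent of that choice. The first asked whether the genes differ between the CCR2pos and CCR2neg fractions.

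Without Cre, Scimp was higher in CCR2pos cells in both genotypes. In TFEB-TG it rose by a log2 fold change of 0.63 ± 0.13 (adjusted p = 0.00508 by edgeR's quasi-likelihood test), with all 4 CCR2pos libraries above all 4 CCR2neg libraries (8.18% of all genes had these groups apart in either direction), and it was 1 of 6 called against 3.26% of all genes. In TFEB-wt it rose by 0.49 ± 0.12 (edgeR adjusted p = 0.0202), and Cd4 rose by 1.04 ± 0.23 (edgeR adjusted p = 0.0108), so that 2 of 6 were called against 2.35% of all genes. Both TFEB-wt calls depended on the libraries used. The Scimp call was lost when any 1 of 6 libraries was left out (CCR2pos replicate 1, 2 or 3, CCR2neg replicate 1, 3 or 5, adjusted p up to 0.0734), and the Cd4 call without CCR2pos replicate 2 (0.0554). Fitted to these 10 libraries only, edgeR gave adjusted p-values of 0.0737 and 0.0521.

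With Cre, none of the 6 genes passed the unblocked test between fractions in CX3CR1-Cre cells (0.797% of all genes called) or in mac-TFEB cells (0.539%). In each, 1 gene, Nt5e, had an unadjusted p under 0.05 by edgeR. With the label number as a block, edgeR called Nt5e in mac-TFEB cells (adjusted p = 0.0119), where it called 3.76% of all genes. Scimp was at log2 fold changes of -0.13 ± 0.12 in CX3CR1-Cre and -0.10 ± 0.13 in mac-TFEB cells. Cx3cr1 was at 0.00 ± 0.19 and 0.11 ± 0.21 with Cre, and at 0.39 ± 0.19 (TFEB-wt, adjusted p = 0.409) and 0.56 ± 0.21 (TFEB-TG, adjusted p = 0.152) without Cre by edgeR. With the label number as a block, the last value became 0.57 with an edgeR adjusted p of 0.000891, a call that the unblocked fit did not make. The blocked fit called 9.6% of all genes in that TFEB-TG Cre-neg comparison, against 3.26% without the block. Whether the difference between fractions changes with Cre status was not tested.

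Nt5e had the lower mean in CCR2pos cells in all 4 comparisons, with log2 fold changes of -0.78 ± 0.34 in CX3CR1-Cre, -1.16 ± 0.33 in TFEB-wt Cre-neg, -1.49 ± 0.39 in mac-TFEB and -1.0 ± 0.37 in TFEB-TG Cre-neg cells. None passed the threshold in the unblocked fit (edgeR adjusted p = 0.370, 0.0567, 0.0763 and 0.152). The TFEB-wt Cre-neg difference passed with DESeq2 (adjusted p = 0.014, 3.35% of all genes called). It passed with edgeR when CCR2neg replicate 1 (0.0457) or 4 (0.0355) or CCR2pos replicate 3 (0.0389) was left out. Those edgeR fits called 1.44% to 2.13% of all genes. It also passed in the blocked edgeR fit (adjusted p = 0.0107, 6.31% of all genes called), but the labels' pairing did not pass its check in that comparison. In mac-TFEB cells the 2 fractions did not overlap (7.03% of all genes), at 3.49 to 6.93 CPM against 9.67 to 22.04 CPM. There the blocked edgeR fit (adjusted p = 0.0119, 3.76% of all genes called) and DESeq2 (adjusted p = 0.00772, 1.41%) called the gene. In CX3CR1-Cre cells the fractions did not overlap either, at 4.44 to 9.94 CPM against 10.34 to 18.5 CPM. The share of all genes apart in CX3CR1-Cre cells is not given. Duoxa2 did not differ detectably between fractions, with estimates of 0.00 ± 0.41 (95% interval -0.84 to 0.83) in CX3CR1-Cre and -0.12 ± 0.46 (-1.06 to 0.82) in mac-TFEB cells. Ctnnd2 was at -0.20 ± 0.31 and -0.43 ± 0.35 in the same cells. Between fractions of TFEB-TG Cre-neg cells, Ctnnd2 was at -0.31 ± 0.37 (edgeR adjusted p = 0.757), and at 0.476 without CCR2neg replicate 1, the library with cardiomyocyte markers, so its direction turned with that library.

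**Figure D3:**
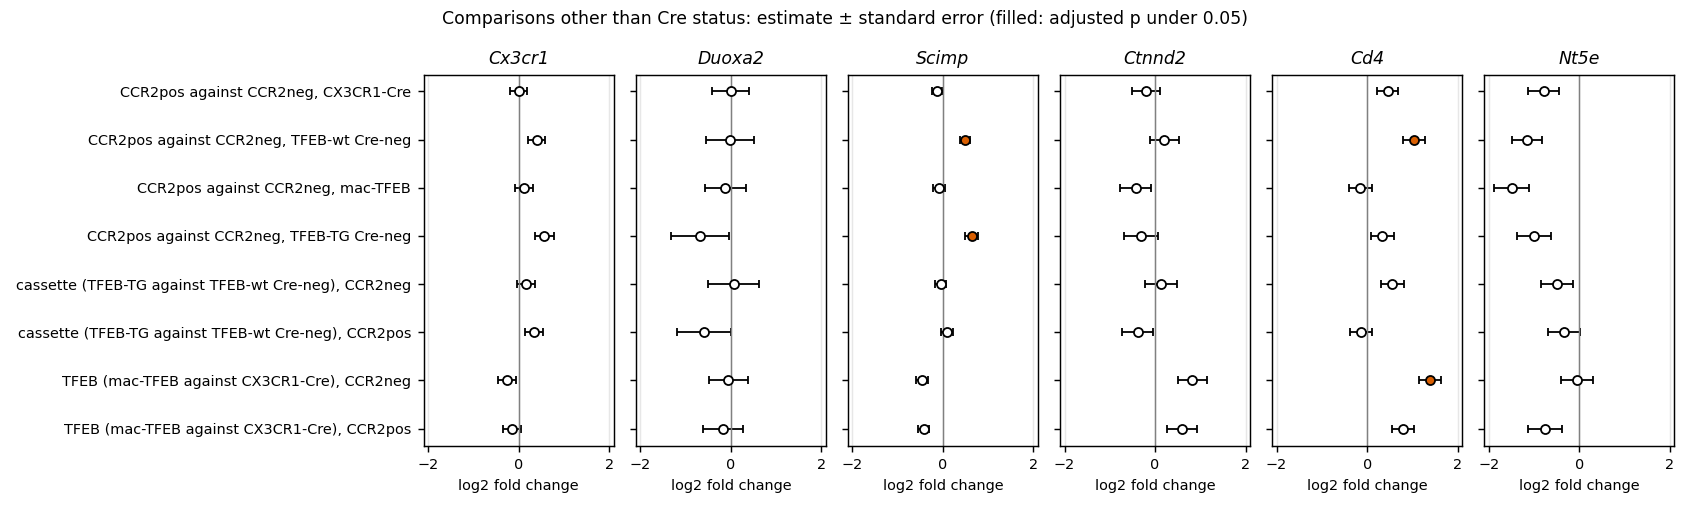
Horizontal axes give the log2 fold change of each gene, 1 panel per gene, with the standard error as whiskers, and rows are the 8 comparisons that do not involve Cre status. Filled points passed an adjusted p of 0.05, which holds for Scimp in both Cre-neg fraction comparisons, for Cd4 in that of TFEB-wt and for Cd4 between mac-TFEB and CX3CR1-Cre in CCR2neg cells.

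The study used Cre-neg cells to find genes that differ with the cassette alone. Between TFEB-TG and TFEB-wt Cre-neg cells none of the 6 genes passed the test in either fraction, where 0.406% (CCR2neg) and 0.0313% (CCR2pos) of all genes did. With a term for Xist in the fit, 2.23% of all genes were called in CCR2neg cells, and still none of the 6. One of the 6, Cd4 in CCR2neg cells, had an unadjusted p under 0.05 (0.0298), with a log2 fold change of 0.56 ± 0.25 by edgeR (adjusted p = 0.314). Duoxa2 was at 0.07 ± 0.56 (95% interval -1.08 to 1.22) in CCR2neg and -0.59 ± 0.60 (-1.81 to 0.62) in CCR2pos cells. In CCR2neg cells Ctnnd2 was at 0.13 ± 0.35 (edgeR adjusted p = 0.923). Without TFEB-TG Cre-neg replicate 1, the library with cardiomyocyte markers, the Ctnnd2 value became -0.649 and that of Duoxa2 -0.037, so both turned in direction. Nt5e went from -0.49 to -0.786. None of them was called, while 3.44% of all genes were. The Duoxa2 value also turned without TFEB-wt Cre-neg replicate 2, 3, 4 or 5 (down to -0.19) or TFEB-TG Cre-neg replicate 3 (-0.003).

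The comparison for the effect of TFEB was mac-TFEB against CX3CR1-Cre, where both groups have Cre. Cd4 rose in CCR2neg cells by a log2 fold change of 1.39 ± 0.24 (adjusted p = 0.00123, edgeR), from 33.1 ± 8.09 CPM (SD, n = 5) to 87.1 ± 9.70 CPM (n = 4), with no overlap (6.03% of all genes had none). It was 1 of 6 called against 1.38% of all genes, and it stayed called under every alternative tried, at adjusted p-values up to 0.00990. An earlier analysis of these data had already called Cd4 in this comparison, so the call repeats a known result. In CCR2pos cells Cd4 was at 0.79 ± 0.24 (edgeR adjusted p = 0.808), edgeR and DESeq2 called none of the 6, edgeR called 0.0391% of all genes, and Cd4 (0.00274) and Scimp (0.00204) had an unadjusted p under 0.05. The difference between the 2 fractions was -0.60 ± 0.35 (95% interval -1.30 to 0.10, edgeR adjusted p = 1), a comparison added after the data had been seen, in which edgeR called 0 genes and 505 had an unadjusted p under 0.05.

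Scimp was lower in mac-TFEB cells in both fractions without passing the threshold. Its log2 fold changes were -0.46 ± 0.13 (edgeR adjusted p = 0.0617) in CCR2neg and -0.42 ± 0.13 (edgeR adjusted p = 0.751) in CCR2pos cells. The first passed with DESeq2 (0.0197), with a term for Xist in the fit (0.0141) and when CX3CR1-Cre replicate 3 (0.0396) or mac-TFEB replicate 1 (0.0184) was left out. In this CCR2neg comparison 1.38% of all genes were called in the main fit, 3.35% with the Xist term and 2.49% with DESeq2. Without CX3CR1-Cre replicate 3 the share was 0.742%, and without mac-TFEB replicate 1 it was 2.03%. Ctnnd2 was at 0.83 ± 0.33 and 0.59 ± 0.33, Cx3cr1 at -0.27 ± 0.20 and -0.15 ± 0.20, and Duoxa2 at -0.05 ± 0.44 and -0.17 ± 0.44 (CCR2neg and CCR2pos), none of them called. Nt5e was at -0.04 ± 0.35 and -0.75 ± 0.38.

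Genes that act with the 6 were read in the Cre comparisons. They were listed for their pathways and not for their values there, but with earlier results of these data known. Of 59 such genes, from the fractalkine, NADPH oxidase, Src kinase, catenin, CD4 and adenosine pathways, 53 were measured, and Duox1, Duox2, Duoxa1, Adora1, Arvcf and Cdh2 are not listed in the table. In TFEB-wt CCR2neg cells 1 rose and 1 fell, against 2.60% of all genes called. Runx1, a transcription factor that acts on the Cd4 gene in T cells, rose by a log2 fold change of 0.60 ± 0.14 (edgeR adjusted p = 0.0127), from 71.5 to 107 CPM on average. Hvcn1, the proton channel that sustains NADPH oxidase activity, fell by 0.57 on the log2 scale with a standard error of 0.14 (edgeR adjusted p = 0.0240), from 111 to 74.8 CPM. The count of 2 became 0 without Cre-neg replicate 5, and 1 without Cre-neg replicate 2 or 3 or CX3CR1-Cre replicate 3, 4 or 5. None was called in TFEB-wt CCR2pos (0.00782% of all genes), TFEB-TG CCR2neg (0.156%) or TFEB-TG CCR2pos cells (0.0156%).

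The median log2 fold change of the 53 genes was 0.06 in TFEB-wt CCR2neg cells, where that of all genes was 0.01. With the label number as a block, the called partner genes were 7 in TFEB-wt CCR2neg cells against 7.54% of all genes and 2 in TFEB-TG CCR2neg cells against 2.35%. Cx3cl1, the ligand of CX3CR1, stayed near the limit of detection, at 0.912 CPM with and 0.457 CPM without Cre in TFEB-wt CCR2neg cells. Cybb, the oxidase subunit of macrophages, was at 1568 and 1553 CPM there (log2 fold change 0.02 ± 0.11, edgeR adjusted p = 0.976). Entpd1 (CD39), which makes the AMP that CD73 uses, was at 665 CPM in mac-TFEB and 419 CPM in TFEB-TG CCR2neg Cre-neg cells (0.68 ± 0.16, edgeR adjusted p = 0.0668). Cx3cl1, Cybb and Entpd1 are named for their direct link to a member, chosen after their values were seen.

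Over the 36 libraries, correlations of log2 CPM were ranked with unnamed gene models, pseudogenes and processed transcripts left out. The genes that ran most like Cx3cr1 were Cd83 (Pearson r = 0.863), Fam129a (0.823) and Tank (0.820). For Duoxa2 they were Ctnnd2 (0.819), Galnt12 (0.755) and Tdrkh (0.755), and for Ctnnd2 they were Duoxa2, Rtn1 (0.719) and Adam22 (0.704). Scimp ran most like Fam129a (0.796), Hcls1 (0.787) and Ckb (0.766). Cd4 ran most like Anp32e (0.749), and Cd28 (0.711) was also among the genes named for it by the same rule. Nt5e ran most like Stac2 (0.845), Cxcl3 (0.813) and Ecm1 (0.813). These values describe 36 libraries that share groups and label numbers. Duoxa2 and Ctnnd2 were both chosen on Cre status, so their correlation is not independent of that choice. Cxcl3, a neutrophil-attracting chemokine, averaged 48.2 CPM in Cre-neg and 10.9 CPM in libraries with Cre.

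Markers of other cells were read beside these genes. For Cd4, the summed level of 15 measured T and NK cell markers (of 16) was 26.2 to 217 CPM over the libraries, and its range overlapped between all groups. In CCR2neg cells it was 68.7 to 154 CPM (median 90.5) in mac-TFEB and 33.6 to 76.9 CPM (median 39.6) in CX3CR1-Cre libraries. The 15 markers had a median log2 fold change of 0.54 there, with 1 called higher. Cd3e, part of the T cell receptor complex, ran from 0.181 to 18.7 CPM (median 0.994) in those mac-TFEB and from 0.535 to 4.62 CPM (median 0.955) in those CX3CR1-Cre libraries. The first range held the whole of the second, and the mac-TFEB mean of 5.22 CPM rested on 1 library. With Cre, the T and NK medians were -0.57, 0.29, -0.06 and 0.61 (TFEB-wt CCR2neg and CCR2pos, TFEB-TG CCR2neg and CCR2pos). Of these markers, 2 were called lower in TFEB-wt CCR2neg cells and 0 in the other comparisons. In TFEB-wt CCR2neg cells 1 of 7 dendritic cell markers was called higher and 1 of 10 macrophage markers lower, against 2.6% of all genes called. For Nt5e, 5 measured neutrophil markers (of 7; Ly6g and Retnlg are not listed) had median log2 fold changes with Cre of -1.88, -1.39, -1.72 and -0.74 (TFEB-wt CCR2neg and CCR2pos, TFEB-TG CCR2neg and CCR2pos), with 0 of 5 called by edgeR in each. S100a8, a defining gene of that list, averaged 5.42 CPM in TFEB-wt CCR2neg Cre-neg and 0.876 CPM in CX3CR1-Cre libraries. The summed level of the 5 markers differed less there, with medians of 106.9 CPM without and 84.03 CPM with Cre. In TFEB-wt CCR2pos cells the median sums were 115.6 CPM without and 105.7 CPM with Cre. In TFEB-TG they were 127.6 and 111.6 CPM (CCR2neg) and 134.2 and 109.2 CPM (CCR2pos). The ranges of these sums overlapped between Cre states in each comparison. The 9 monocyte markers, all measured, had median log2 fold changes with Cre of -0.66, -0.51, -0.66 and -0.68 in that order of comparisons. Of them, 1 was called lower in TFEB-wt CCR2neg cells and 0 in the other 3. In the same order, the medians were 0.11, -1.19, -0.90 and -0.72 for 7 fibroblast markers, 0.41, -1.07, 0.26 and -0.46 for 6 endothelial markers and -0.04, -1.59, -0.38 and -0.78 for 5 mural cell markers, with 0 called in each. These lists were therefore lower on the median with Cre in TFEB-wt CCR2pos cells. In TFEB-wt CCR2neg cells the fibroblast and endothelial medians were positive and the mural one was close to no change. The summed fibroblast level was 63.6 to 524 CPM in Cre-neg and 59.4 to 111 CPM in CX3CR1-Cre libraries of TFEB-wt CCR2pos cells, and 73.9 to 616 and 59.5 to 377 CPM in CCR2neg cells. The cardiomyocyte median was -1.84 in TFEB-TG CCR2neg cells, whose Cre-neg group holds the library at 513 CPM. No marker of any list was at 0 in all libraries of a group, and the part of these other cells in the results was not tested.

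**Figure D4:**
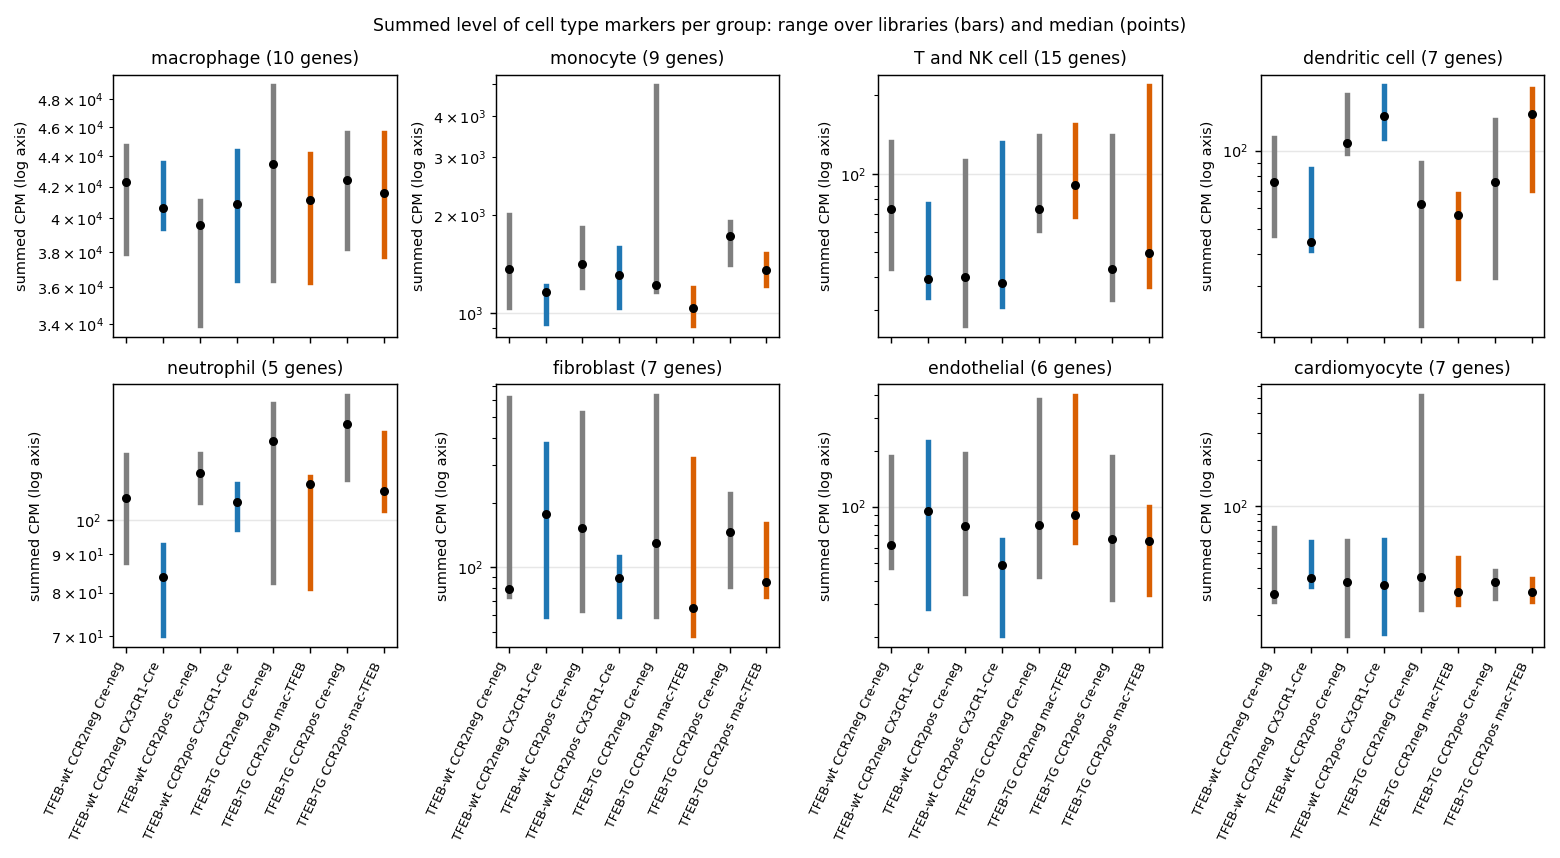
Each panel gives the summed CPM of 1 list of cell type markers on a logarithmic vertical axis, with the 8 groups on the horizontal axis. Bars run from the lowest to the highest library of a group (grey Cre-neg, blue CX3CR1-Cre, orange mac-TFEB) and points are medians. The cardiomyocyte panel shows the single library at 513 CPM, and the T and NK cell ranges overlap between groups with and without Cre.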

How the data were processed

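The authors deposited 1 table of raw read counts per gene. It is named as filtered, but how is not stated. Per the labels' protocols, libraries came from SMARTer Ultra Low cDNA and were read from 1 end without strand information. Per the submitters' processing notes, Bowtie2, TopHat, TopHat2 2.0.10, HTSeq, DESeq, edgeR and GRCm38 were used, with no parameters given. Groups follow the labels.

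The 6 genes and the gene lists were chosen with earlier results of these data known. CPM was computed here by scaling each count to the library's total over 12795 genes. Comparisons used the quasi-likelihood test of edgeR 4.0.16 (R 4.3.3), with TMM normalization, a mean for each of 8 groups in 1 fit of all 36 libraries, and Benjamini-Hochberg adjustment over all genes. Its expression filter (minimum count 10) removed none. Standard errors were obtained from each log2 fold change and its F statistic. The common dispersion of 0.0943, the spread between libraries, set the precision. Counts of replicates differed beyond sampling noise in all 64 pairs (chi-square over its degrees of freedom, 20 to 119), so none was merged. On simulated counts for 12795 genes of the TFEB-wt CCR2neg Cre comparison, the test recovered 90% of 2-fold and 97% of 4-fold changes. Changes were given only to genes above a set mean level, so recovery for genes at lower levels was not examined.

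The text names the 6 genes throughout, Ccr2 and Tfeb as checks, the 3 genes most correlated with each of the 6, up to 2 called genes per partner list, and marker genes. Unnamed gene models, pseudogenes and processed transcripts were left out of the ranking by correlation. Marker lists were macrophage, resident cardiac macrophage, monocyte, neutrophil, T and NK cell, dendritic cell, B cell, cardiomyocyte, fibroblast, mural and endothelial.

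Same-numbered libraries within a genotype deviated together from their group means (36 pairs, median r = 0.348). Every pair exceeded 0.1 (0.140 to 0.634) except in the CCR2 comparison of TFEB-wt Cre-neg cells (lowest r = 0.0958). The label number was therefore taken to pair the libraries in the other 7 comparisons within a genotype. The main fit does not use this pairing, so its p-values for those comparisons ignore it. The blocked fit was run for all 8. Alternatives were DESeq2 size factors, no filter, 1 CPM in 9 libraries, DESeq2 1.42.0's Wald test, the block, a term for Xist (above 10 CPM), a fit to the libraries compared and each library left out in turn. One gene that the rule for named genes picked is not reported here.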

Additional observations from a re-analysis of the deposited data

Results flagged for a closer look

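In 48 groups of 4 or 5 libraries (6 genes, 8 groups each), 4 values lay far from the others of their group, where chance flags about 1 in 20 groups. Cx3cr1 was at 172 CPM in TFEB-wt CCR2pos Cre-neg replicate 3 and at 286 to 313 CPM in the other 4 libraries of the group. It was at 432 CPM in TFEB-TG CCR2neg mac-TFEB replicate 2 and at 338 to 349 CPM in the other 3. Duoxa2 was at 1.57 CPM in TFEB-wt CCR2neg Cre-neg replicate 1 against 0.162 to 0.372 CPM in the others. Ctnnd2 was at 7.61 CPM in TFEB-TG CCR2neg Cre-neg replicate 1, the library with cardiomyocyte markers, against 1.33 to 1.98 CPM in the others.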

How the results depend on the processing

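Of the 24 log2 fold changes with Cre (6 genes, 4 comparisons), 22 kept their direction under every alternative. With 1 library left out, Duoxa2 in TFEB-wt CCR2neg cells ran from 4.14 to 5.41, and estimates near 0 changed sign (Scimp in TFEB-TG CCR2pos, up to 0.08, and Cd4 in TFEB-wt CCR2pos cells, down to -0.007). Duoxa2 between fractions of CX3CR1-Cre cells became 0 with DESeq2 size factors and 0.001 with DESeq2, and Ctnnd2 between the Cre-neg CCR2neg groups of the genotypes became -0.022 with a term for Xist. With 1 library left out, the differences between CCR2 fractions ran from -0.133 to 0.121 (Cx3cr1, CX3CR1-Cre), -0.095 to 0.067 (Duoxa2, CX3CR1-Cre), -0.651 to 0.998 (Duoxa2, TFEB-wt Cre-neg), -0.20 to 0.017 (Scimp, mac-TFEB) and -0.695 to 0.476 (Ctnnd2, TFEB-TG Cre-neg, positive only without CCR2neg replicate 1). Those with the cassette alone ran from -0.19 to 1.083 (Duoxa2, CCR2neg), -0.998 to 0.038 (Duoxa2, CCR2pos), -0.118 to 0.006 (Scimp, CCR2neg), -0.649 to 0.378 (Ctnnd2, CCR2neg) and -0.259 to 0.002 (Cd4, CCR2pos). Those with TFEB in CCR2neg cells ran from -0.091 to 0.005 (Duoxa2) and -0.349 to 0.096 (Nt5e).

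Shares of all genes called under the same setting are given in brackets. Of the 6 genes, the number called between fractions of TFEB-wt Cre-neg cells was 4 with the block (6.31%), adding Cx3cr1 and Nt5e. It was 0 in a fit to these libraries only (1.56%) and 0 to 3 with 1 library left out (1.29% to 2.23%). The labels' pairing did not pass its check there. In mac-TFEB cells the number called was 1 with DESeq2 (1.41%) and 1 with the block (3.76%). In TFEB-TG Cre-neg cells it was 2 with the block (9.6%). For TFEB in CCR2neg cells it was 2 with DESeq2 (2.49%) and 2 with the Xist term (3.35%). With 1 library left out it was 1 to 2 (0.461% to 2.03%). The block changed no other call of the 6 genes. Partner genes called in TFEB-wt CCR2neg cells were 4 with DESeq2 (3.67%) and 7 with the block (7.54%). They were 1 in the fit to these libraries only (1.9%) and 0 to 2 with 1 library left out (1.52% to 3.03%). In TFEB-TG CCR2neg cells they were 1 with DESeq2 (0.664%) and 2 with the block (2.35%). For these changes the cause was not tested. With 4 or 5 libraries a group, spread between libraries and not depth limited these comparisons, except for Duoxa2 without Cre, at 0 to 35 reads a library.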
